A study of Gallus gallus with 48 samples.

Results

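Livers of 8-week-old chickens were compared with livers of 6-week-old chickens on a panel of 20 genes of lipid metabolism and growth. The members are the samples whose titles name these ages, 24 of the 48 in the series, with 12 at 6 weeks and 12 at 8 weeks. All birds were male Beijing-You chickens, an indigenous breed, with no treatment or genotype named. Total RNA of each liver was labelled with 1 dye and hybridised alone to 1 sub-array, a small copy of the oligonucleotide panel that was printed many times on a slide. At each age 6 samples carried Cy3 and 6 carried Cy5. By the submitters' note, samples 5 and 8 of the older age are 1 extract measured on 2 sub-arrays, with a different dye on each by label. Their mean was used as 1 value, which leaves 11 units at 8 weeks. Nothing else in the labels says whether other samples shared a bird, so p-values measure the spread between samples. In the main fit that spread was taken over 47 units of all ages in the series.

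In birds the liver is the main site of fatty acid synthesis. Glycolysis, which ends with pyruvate kinase, supplies its carbon, acetyl-CoA carboxylase and fatty acid synthase build the chain, and Spot14 proteins promote the process. The fat is exported in lipoproteins carried by apolipoprotein B, or its fatty acids enter mitochondria through carnitine palmitoyltransferase, while AMP-activated kinase restrains synthesis when energy is low. Growing meat-type and indigenous chickens lay down fat through this hepatic pathway, and the panel holds genes of some of its steps.

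No gene of the 20 passed the test of a change between 6 and 8 weeks. With limma, a linear model across the genes with age and dye as terms, 0 of 20 genes, or 0%, passed a Benjamini-Hochberg adjusted p of 0.05, and 2 genes had an unadjusted p under 0.05. A permutation test within dye also called 0 of 20. The closest to the threshold were Spot14b, with a higher mean at 8 weeks, and AMPKg2, with a lower mean. Both were mostly not above background. The smallest limma adjusted p was 0.230 with the units of all ages in the fit. It was 0.321 when only the units of 6 and 8 weeks were fitted. Each level is a log2 intensity minus the median of the 20 genes in the same sample, so a difference of 1 is a factor of 2 relative to the panel. The 20 differences ranged from -0.75 to 1.18 with a median of -0.07, 9 were positive and 11 negative, and their median standard error was 0.39. In each gene the ranges of both ages overlapped. The 95% interval lay within a factor of 2 in either direction for 5 genes, and reached past it in the other 15. Of these 5, Spot14a was above background in 10 of 24 samples, IGF-1 in 4, ACC and IGF-2 in 1 each and OB(Mus) in 0. An interval between values near background does not bound a change in RNA. Without centring on the panel the median difference over the genes was -0.26, and all differences here are relative to that shift.

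**Figure D1:**
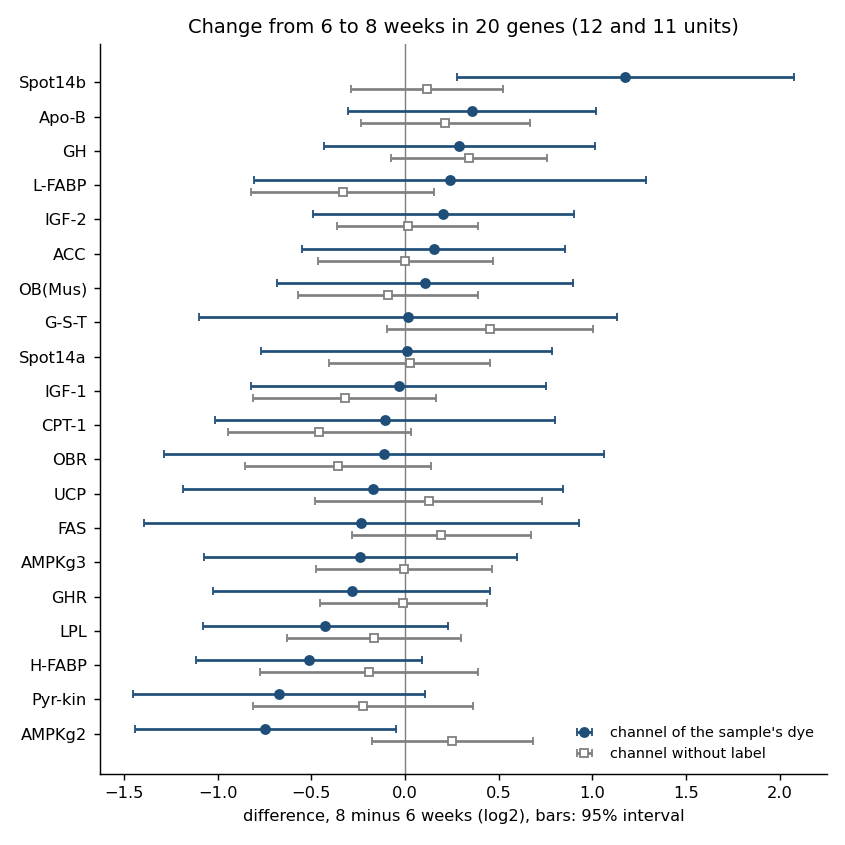
Difference between 8 and 6 weeks of age for each of the 20 genes on the log2 scale (x axis), with 95% intervals from limma. Filled circles are the channel of the sample's dye and open squares the channel without label. The difference is between 12 units of 6 weeks and 11 of 8 weeks. For the labelled channel the error comes from the fit to 47 units of all ages. The intervals of Spot14b and AMPKg2 in the labelled channel leave out 0, and neither gene passed the adjusted threshold.

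The signals were weak, and they set how far the levels can be read. A gene counted as above background in a sample when its spots exceeded the local background by 2 background SD on average. Of the 240 values at 6 weeks 72 met this, or 30%, and of the 240 at 8 weeks 58 did, or 24.2%. The spots read as the corn and blank probes, whose naming the match to the authors' table did not bear out, were above background in 0 samples. A sample had 6.00 ± 2.17 genes above background at 6 weeks (SD, n = 12) and 4.82 ± 3.25 at 8 weeks (SD, n = 11), and the means differed by -1.28 over both dyes (permutation test, two-sided, p = 0.241, adjusted over 3 measures 0.605). Local background medians ranged from 1142 to 15950 intensity units at 6 weeks and from 3031 to 7824 at 8 weeks. Neither the background (p = 0.605) nor the median net signal (p = 0.519) differed past the threshold in the same permutation test. The gain of the scanner had a median of 580 at 6 weeks and 520 at 8 weeks among Cy3 samples. Among Cy5 samples it was 660 at both ages. Whether gain moved the counts above background was not tested. The 2 spots of 1 gene differed by a median of 0.18 on the log2 scale when the value was above background and by 0.41 when it was not.

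Hepatocyte markers were read to check the tissue. L-FABP, the liver fatty acid binding protein, was above background in 8 of the 24 samples, and Apo-B in 0 of 24. H-FABP, the heart and muscle form, was above background in 12 of 24. LPL, which adipose tissue makes, was above background in 9. GH, the pituitary's growth hormone, and OB(Mus), by its name a probe for the mouse obese gene, were above background in 0. In the channel without label the counts were 1 for L-FABP, 0 for Apo-B, 7 for H-FABP, 5 for LPL, 1 for GH and 0 for OB(Mus). Of the hepatocyte markers on the panel, 1 was thus detected in the labelled channel and 1 was not. The part of other cell types in the results was not tested. In whole liver, fewer cells of a type and less RNA per cell cannot be told apart.

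Age and slide were largely confounded. The 24 samples lay on 10 slides told apart by scan, of which only 2 held both ages, with 5 samples of 6 weeks and 3 of 8 weeks together. The other 16 samples were on slides that held only one of these ages. For these, slide and age cannot be told apart directly. Samples of 10 or 12 weeks lay on all of these slides except the one of sample 11 of 6 weeks, so a fit with slide as a block was possible. Sample 11 of 6 weeks was alone on its slide, and with slide as a fixed block it does not enter the difference between ages.

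Fatty acid synthesis is represented by 4 genes, of which 0 passed the test. Spot14b, one of the paired avian Spot14 genes, ranged from -5.29 to 0.79 at 6 weeks with a median of -1.36. At 8 weeks it ranged from -1.80, the mean of the technical pair, to 1.23 with a median of -0.14. The 8-week units were the higher ones: 8 of 11 exceeded the 6-week median, while the ranges overlapped between -1.80 and 0.79. The mean rested on values near background, since 1 of 12 samples was above it at 6 weeks and 2 of 12 at 8 weeks. The difference was 1.18 ± 0.45 (SE, n = 12 and 11), with a 95% interval of 0.27 to 2.08 and a limma adjusted p of 0.230. Sample 11 of 6 weeks was the lowest at -5.29, where its signal was 0.18 background SD, and without it the difference was 0.81. Without background subtraction the difference was 0.18, and in the authors' log2 values as deposited it was -0.21. Those values cover fewer samples, since Spot14b has a value, not the missing code, in 3 of 12 at 6 weeks and 7 of 12 at 8 weeks. The technical pair, samples of 1 extract, read -0.44 with Cy5 and -3.16 with Cy3, a gap of 2.72 that was the widest of the 20 genes and wider than the difference between the ages.

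Spot14a, the paralog, ranged from -1.22 to 1.69 around a median of 0.61 at 6 weeks, and from -1.06 to 1.88 around 0.55 at 8 weeks. It was above background in 6 of 12 and 4 of 12 samples. Its difference was 0.01 ± 0.39 (SE), with a 95% interval of -0.77 to 0.78. FAS, read here as fatty acid synthase, ranged from -1.47 to 4.07 around 0.90 at 6 weeks and from -1.82 to 3.28 around 0.13 at 8 weeks. With 6 of 12 samples above background at each age, FAS was as often detected at one age as at the other, and its difference of -0.23 ± 0.58 (SE) lay well inside the spread between samples. ACC, acetyl-CoA carboxylase, passed background in 1 sample of 8 weeks and in 0 of 6 weeks, with a difference of 0.15 ± 0.35 (SE) between background-level values.

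Pyr-kin, pyruvate kinase, was the gene with the most samples above background at 6 weeks, 9 of 12, and 6 of 12 were above it at 8 weeks. It ranged from 0.56 to 5.03 around a median of 2.63 at 6 weeks, and from 0.60 to 3.01 around 1.72 at 8 weeks. The 8-week units sat in the lower part of the 6-week range, with 8 of 11 below the 6-week median. The difference was -0.67 ± 0.39 (SE, n = 12 and 11), with a 95% interval of -1.45 to 0.11 and a limma adjusted p of 0.477. The interval thus spans a decrease of more than a factor of 2 and no decrease. Scaling moved the value, to -0.10 with quantile normalization and -0.22 with centring on the control probes.

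Energy sensing is represented by the gamma 2 and gamma 3 subunits of AMP-activated kinase, which bind AMP in the complex. AMPKg2 ranged from -1.34 to 0.79 at 6 weeks with a median of -0.27. At 8 weeks it ranged from -2.28 to -0.06 with a median of -0.92. All but 1 of the 11 units of 8 weeks were below the 6-week median, yet the ranges overlapped between -1.34 and -0.06. The difference was -0.75 ± 0.35 (SE), with a 95% interval of -1.44 to -0.05 and a limma adjusted p of 0.367. It was -0.10 without background subtraction, -1.43 with plain subtraction and 0.63 in the authors' log2 values as deposited. AMPKg2 was above background in 1 of 12 samples at each age. It was also the 1 gene of 20 whose SD of a single spot (0.68) was above its SD between samples (0.57). The SD between samples is for means of 2 spots, so this ranking does not mean that spot error exceeded sample spread. In the authors' deposited table AMPKg2 has a value, not the missing code, in 10 samples of 6 weeks and 3 of 8 weeks. Over 12 and 11 samples that difference had a Fisher's exact p of 0.0123 (two-sided, adjusted p = 0.246), a test chosen after these counts were seen, and 1 of 20 genes, or 5%, had an unadjusted p under 0.05.

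AMPKg3 ranged from -1.58 to 2.58 around 0.81 at 6 weeks and from -0.39 to 2.20 around -0.13 at 8 weeks. Most 8-week units, 9 of 11, lay below the 6-week median, and the few high ones lifted their mean. Its difference was -0.24 ± 0.42 (SE). It was above background in 4 and 3 of 12 samples.

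Fatty acid oxidation and heat production are represented by CPT-1, which passes long-chain fatty acids into mitochondria, and UCP, an uncoupling protein of their inner membrane. UCP exceeded background in 8 of 12 samples of the younger age and 9 of 12 of the older, the most of any gene over both ages. It ranged from -0.92 to 4.88 around 2.39 at 6 weeks, and from 0.59 to 4.23 around 1.73 at 8 weeks. The wide 6-week range contained all 8-week values, and the difference was -0.17 ± 0.51 (SE). CPT-1 ranged from -2.38 to 2.82 around 0.11 at 6 weeks, and from -3.48 to 2.74 around 0.45 at 8 weeks. Its samples split by dye and not by age: the means were 1.77 with Cy3 and -1.05 with Cy5 at 6 weeks, and 1.31 and -0.97 at 8 weeks. The difference with dye in the model was -0.11 ± 0.45 (SE).

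Fatty acid binding proteins carry fatty acids within cells. H-FABP exceeded background in 7 of 12 samples of the younger age and 5 of 12 of the older. It ranged from 0.37 to 2.68 around 1.46 at 6 weeks and from 0.10 to 1.86 around 1.08 at 8 weeks. The lowest value was at 8 weeks and the 3 highest values were at 6 weeks. The difference was -0.51 ± 0.30 (SE), the smallest error of the 20 genes, with a 95% interval of -1.11 to 0.09 and a limma adjusted p of 0.477. H-FABP stood at -0.05 with centring on the control probes, -0.18 with quantile normalization and -0.19 without background subtraction. L-FABP, with 4 of 12 samples above background at each age, ranged from -2.84 to 2.84 around -0.36 at 6 weeks and from -0.86 to 2.75 around 0.08 at 8 weeks. Its difference was 0.24 ± 0.52 (SE).

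Lipoprotein genes lay on opposite sides of 0. LPL, lipoprotein lipase, which frees fatty acids from circulating lipoproteins, ranged from -0.21 to 1.98 around 0.83 at 6 weeks and from -0.79 to 2.02 around 0.27 at 8 weeks. It was above background in 6 and 3 of 12 samples. The difference was -0.43 ± 0.32 (SE, 95% interval -1.08 to 0.23, limma adjusted p = 0.785), and it was 0.03 when samples were centred on the control probes. Apo-B, the protein of exported lipoproteins, ranged from -1.85 to 1.11 around -0.41 at 6 weeks and from -1.16 to 0.52 around -0.15 at 8 weeks. Its difference of 0.36 ± 0.33 (SE, 95% interval -0.31 to 1.02, limma adjusted p = 0.952) was one between background-level values, and it was -0.18 with slide as a fixed block.

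Growth hormone acts on the liver through its receptor, GHR, to raise the growth factor IGF-1. None of the 4 genes of that axis passed the test. GHR was above background in 1 of 12 samples at each age and differed by -0.29 ± 0.37 (SE), IGF-1 was above it in 2 of 12 at each age and differed by -0.03 ± 0.39 (SE). IGF-2 was above background in 0 and 1 samples and GH in 0 at either age, with differences of 0.20 ± 0.35 and 0.29 ± 0.36 (SE).

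Of the leptin axis, OBR, the leptin receptor, was above background in 8 and 5 of 12 samples. It ranged from -2.31 to 2.89 around 1.67 at 6 weeks, and from -2.59 to 2.63 around 1.30 at 8 weeks. As with CPT-1, the dye separated its samples more than age did, with means of 2.32 (Cy3) and -0.09 (Cy5) at 6 weeks and of 1.78 and 0.04 at 8 weeks. Other genes went the opposite way, with higher means in Cy5. FAS had -0.06 (Cy3) and 1.77 (Cy5) at 6 weeks and 0.08 and 1.53 at 8 weeks. UCP had 1.53 and 2.75 at 6 weeks and 1.46 and 2.66 at 8 weeks. The difference of OBR was -0.11 ± 0.58 (SE), the largest error of the 20 genes. OB(Mus) differed by 0.11 ± 0.39 (SE), with 0 samples above background. G-S-T, glutathione S-transferase, an enzyme of detoxification, was above background in 3 and 2 of 12 samples and differed by 0.02 ± 0.56 (SE).

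**Figure D2:**
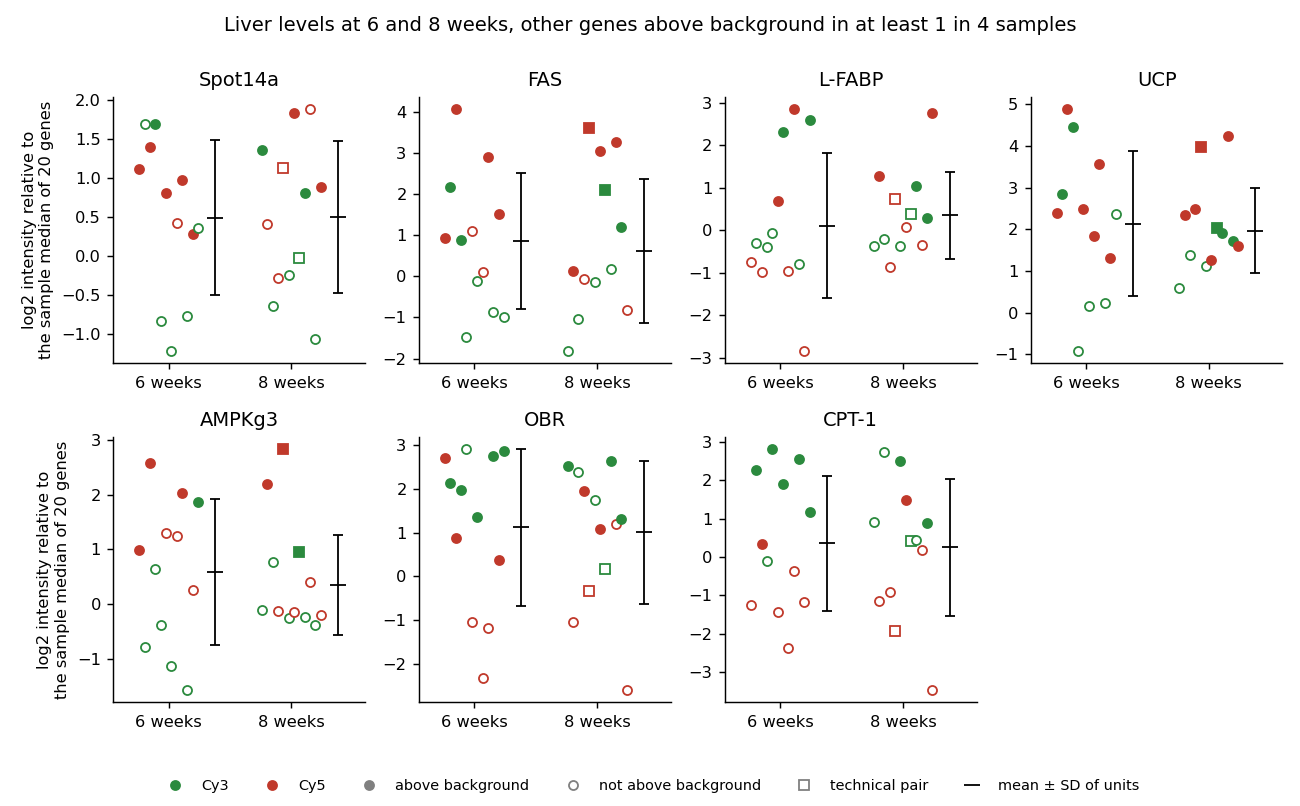
Level of the other 7 genes that were above background in at least 1 in 4 of the 24 samples (y axis, log2 intensity relative to the sample's median of 20 genes) at 6 and 8 weeks of age, with colours, fills, squares and bars for dye, detection, technical pair and mean ± SD. The ages overlap in each gene, and in OBR and CPT-1 most Cy3 points lie above most Cy5 points at both ages.

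Detection was then compared, which needs no log scale or centring. It rests on signal minus local background in units of background SD. By Fisher's exact test on 12 and 11 samples, with sample 5 standing for the technical pair, 0 of 20 genes, or 0%, passed the adjusted threshold, and 0 had an unadjusted p under 0.05. The lowest p was that of Pyr-kin, which was above background in 9 of 12 samples against 5 of 11 (exact p = 0.214, adjusted p = 1). LPL and CPT-1 each went from 6 of 12 to 3 of 11 (exact p = 0.400). FAS, L-FABP and UCP were detected about equally often at both ages.

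The same spots were also read in the other channel, for which the sample had no label. Whether signal there was carry-over from the labelled dye or light from the spot itself was not tested. CPT-1 was above background there in 12 of 24 samples, more than the 9 in the labelled channel, and OBR in 11, against 13. Pyr-kin reached 8 against 15, H-FABP 7 against 12 and LPL 5 against 9. By contrast FAS, Spot14a and AMPKg3 were above background in 12, 10 and 7 samples in the labelled channel and in 0 in the other, and UCP in 17 and 1. For CPT-1 the unlabelled channel passed in samples 6 and 8 of 6 weeks (Cy5), where the labelled channel read -1.04 and -0.47 background SD. It also passed in sample 10 of 6 weeks (Cy3), where the labelled channel read 5.84. For CPT-1 and OBR most samples that passed there carried Cy5, so the channel read was that of Cy3. In the labelled channel CPT-1 passed with Cy3 in 5 samples of 6 weeks and 2 of 8 weeks. With Cy5 it passed in 1 sample at each age. How much of the Cy3 signal of CPT-1 and OBR came from liver RNA was not tested. The 8 minus 6 week differences of the unlabelled channel passed the adjusted threshold in 0 of 20 genes, or 0%, by limma, with 0 unadjusted p under 0.05. There Spot14b differed by 0.12 ± 0.20 (SE) and AMPKg2 by 0.25 ± 0.21 (SE). Pyr-kin differed by -0.23 ± 0.29 (SE) and H-FABP by -0.19 ± 0.29 (SE).

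**Figure D3:**
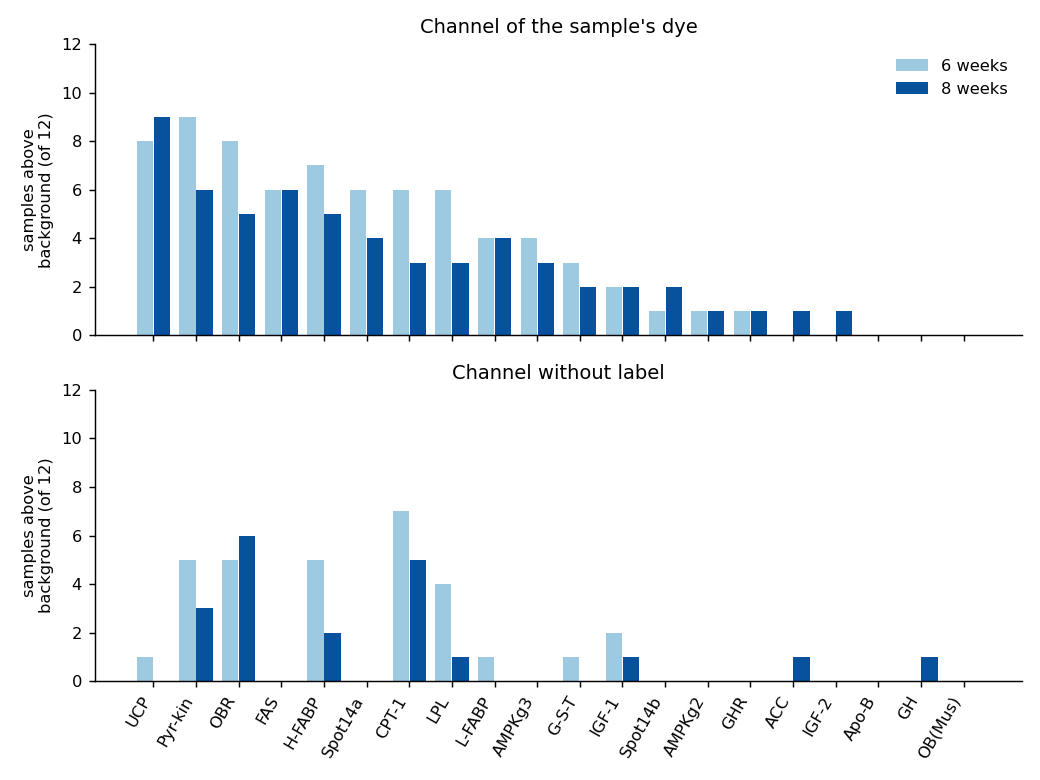
Number of samples, of 12 at each age, in which each gene was above background (y axis), in the channel of the sample's dye (upper panel) and in the channel without label (lower panel), at 6 weeks (light bars) and 8 weeks (dark bars). UCP and Pyr-kin lead the labelled channel, and CPT-1 and OBR lead the channel without label.

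Each age was measured with both dyes, which gave the change from 6 to 8 weeks separately in 6 against 6 samples per dye. The sign was the same with both dyes in 8 genes and opposite in 12. Spot14b differed by 2.00 ± 0.62 (SE) among Cy5 samples and by 0.12 ± 0.62 (SE) among Cy3 samples. The Cy5 levels ranged from -5.29 to 0.79 at 6 weeks and from -0.44 to 1.23 at 8 weeks, and the Cy3 levels from -2.98 to -0.24 and from -3.16 to 0.30. Within Cy5, Spot14b was the 1 gene of 20, or 5%, that passed an adjusted threshold (limma adjusted p = 0.0477), and without sample 11 of 6 weeks it was 1.30 with an adjusted p of 0.545. The call within Cy5 held in 11 of the 24 fits that left out 1 sample, and in the other 13 the adjusted p ranged from 0.0501 to 0.545. With only 6 and 8 weeks in the fit, the limma adjusted p within Cy5 was 0.143. The test of the difference between dyes gave 1.88 ± 0.88 (SE, 95% interval 0.10 to 3.65, limma unadjusted p = 0.0387, adjusted p = 0.513). For that test 0 of 20 genes, or 0%, passed the adjusted threshold and 1 had an unadjusted p under 0.05.

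AMPKg2 differed in the same direction with both dyes, by -1.15 ± 0.49 (SE) in Cy5 samples and by -0.44 ± 0.49 (SE) in Cy3 samples. Its Cy5 levels ran from -0.42 to 0.79 at 6 weeks and from -1.59 to -0.49 at 8 weeks, so they did not overlap. That was the case in 1 of the 40 sets of a gene and a dye, or 2.5%. Pyr-kin, H-FABP and LPL were also lower at 8 weeks with both dyes, Pyr-kin by -0.84 ± 0.54 (SE) with Cy3 and -0.36 ± 0.54 (SE) with Cy5, and none of these reached an unadjusted p under 0.05. GH, GHR, IGF-2, L-FABP and AMPKg3 were among the 12 with opposite signs, GH from -0.44 with Cy3 to 0.95 with Cy5.

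**Figure D4:**
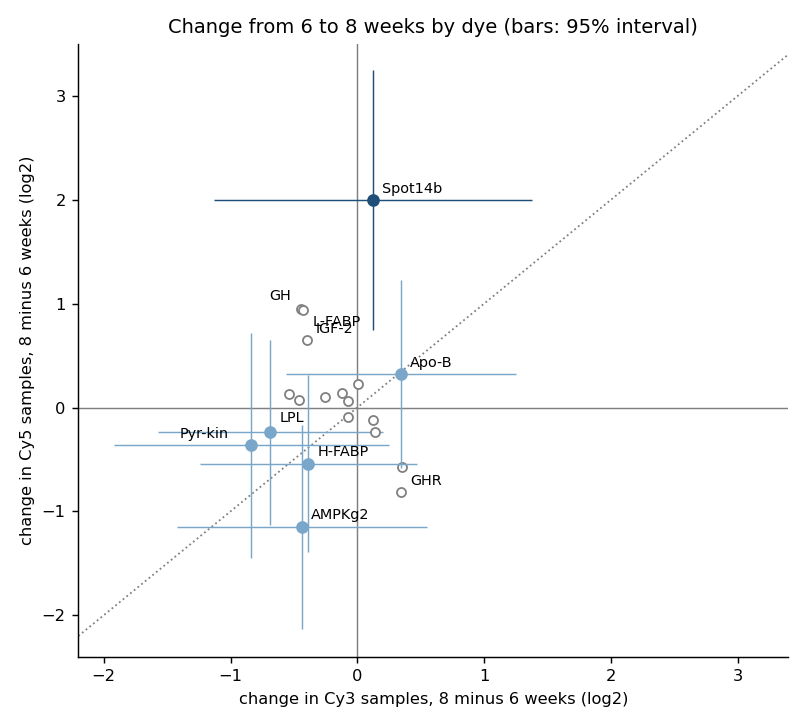
Change from 6 to 8 weeks of age in Cy3 samples (x axis) and in Cy5 samples (y axis), on the log2 scale, for 20 genes; filled circles with 95% intervals mark the 6 genes with the smallest p, and the dotted line marks equal change. Spot14b stands at 0.12 and 2.00, away from the line, and AMPKg2 lies below 0 with both dyes.

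Only 2 slides held both ages, and the leading genes were compared within each, with no test. On the slide with 4 samples of 6 weeks and 2 of 8 weeks, Spot14b was higher at 8 weeks by 1.46, AMPKg2 differed by -0.92 and Pyr-kin by -0.66, while H-FABP differed by -0.06. Dye was not balanced there: the 6-week samples were 1 with Cy3 and 3 with Cy5, and the 2 of 8 weeks carried Cy5. Among its Cy5 samples alone these differences were 1.05, -1.24, -0.64 and -0.03. Sample 5 of the technical pair was among the 8-week samples. On the slide with 1 sample of each age the differences were 0.54, 0.11, -0.55 and 0.12. With slide as a fixed block in limma, Spot14b differed by 1.29 and AMPKg2 by -0.49, and 0 of 20 genes passed the adjusted threshold. In that fit sample 5 stood for the technical pair. Sample 11 of 6 weeks, the lowest for Spot14b, was alone on its slide and so did not enter the difference.

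Control probes were examined with the same model and scaling. Of the 5 beta-actin and 5 Gapdh probes, genes commonly used as references, 0 of 10, or 0%, passed the adjusted threshold and 1 had an unadjusted p under 0.05 (limma). That one, the second beta-actin probe, was above background in 3 samples of 8 weeks and 0 of 6 weeks and differed by 1.30 ± 0.61 (SE, adjusted p = 0.314). The mean of the Gapdh probes differed by -0.69 ± 0.35 (SE, adjusted p = 0.106) and that of the beta-actin probes by -0.23 ± 0.35 (SE, adjusted p = 0.519). Centring on these probes therefore raised each difference: Spot14b to 1.63 (adjusted p = 0.0484) and AMPKg2 to -0.29.

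The spread between samples was compared as well, with each dye's mean removed. By a Brown-Forsythe permutation test 0 of 20 genes, or 0%, passed the adjusted threshold, and 2 had an unadjusted p under 0.05. OB(Mus) had an SD of 0.49 at 6 weeks (n = 12) and 1.05 at 8 weeks (n = 11, permutation p = 0.0132, adjusted p = 0.234), at background-level values. Spot14b went the other way, with SDs of 1.57 and 0.71 (permutation p = 0.0234, adjusted p = 0.234). It was above background in 3 of 24 samples, and sample 8 of 8 weeks, which read -3.16, was left out of this test. With that sample in, the Cy3 SD was 1.07 at 6 weeks and 1.23 at 8 weeks, and the Cy5 SD 2.07 and 0.63. The SD was lower at 8 weeks in 13 genes and higher in 7. Between samples the median SD of the 20 genes was 0.89 (means of 2 spots), and between the 2 spots of a probe it was 0.49 (a single spot). The technical pair, read with different dyes, differed by a median of 0.82 over the genes and by 1 or more in 9 of 20. Its levels correlated at 0.79 over the genes. The 35 other 8-week pairs of opposite dye had a median correlation of 0.30 and a highest of 0.73.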

How the data were processed

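The members and gene lists were chosen with earlier results of these data known. Scanner output deposited by the authors gives, for 64 spots per sample and both wavelengths, intensity, local background and the percent of saturated pixels, without normalization, per the file headers. The sample's channel follows its label, and spots are unnamed. Names were given by position, in the probe order of the authors' deposited table of log2 values (missing code 10000) with Gapdh last. They were checked by a match to the values of that table, with a median correlation of 0.989 over the 24 samples and a lowest of 0.882. Of the 31 probes compared over all samples, 30 were matched best by their own spots, with correlations as low as 0.67 for Spot14b, 0.63 for ACC and 0.58 for the first beta-actin probe. Blank (0.48) was not matched best by its own spots, and corn was not compared, so for both the name rests on position alone. The deposited series table, linear intensity after background subtraction, was an alternative. Its columns for samples 4, 5 and 6 of 6 weeks hold the scanner values of 5, 6 and 3, so it was not the main source.

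Intensities were corrected with normexp (offset 50), leaving out spots whose background exceeded the median of their sub-array more than 5 times, taken to log2, averaged over both spots and centred on the median of the 20 genes. With such spots left in, sample 3 of 6 weeks had an SD over genes of 0.10, against 2.13. Limma 3.58.1 (R 4.3.3) was fitted to 47 units of all 4 ages, with age and dye as terms. Folds are not given, since no bound for a gene below background at an age exceeded 1. Permutations (100000) used Python 3.11.15 and scipy 1.17.1. Tests were run on simulated data first. All 20 genes are described, with full statistics for the 6 smallest p. Same-numbered samples correlated over 0.1 in 6 of 11 pairs. Of the 11 samples of 8 weeks, 0 were closest to the 6-week sample of their number. Samples of one number carried opposite dyes at these ages, so these values cannot decide whether numbers mark pairs. The labels name no pairing, and the main fit did not pair samples by number. The number of samples and the signal over background limit the precision. Coordinates and sequences are not used here.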

Additional observations from a re-analysis of the deposited data

Results flagged for a closer look

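In 2 of the 80 sets of 6 samples of 1 gene, age and dye, a sample lay far from the others, where about 1 in 20 is flagged by chance. Both were sample 4 of 6 weeks with Cy3. Its ACC level was -2.44, the next lowest was -0.67 and the median of the 6 was -0.28. Its OB(Mus) level was -1.93, the next lowest was -0.88 and the median was -0.82. Neither gene was above background in any 6-week sample.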

How the results depend on the processing

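The count of 0 genes stayed at 0 under 19 of 21 alternatives and when each of the 24 samples was left out. It was 1 with centring on the control probes and 1 with the replicate number as a block, Spot14b both times (1.63, adjusted p = 0.0484, and 1.28, adjusted p = 0.0362). Same-numbered samples correlated from -0.70 to 0.38, and 0 of 11 samples of 8 weeks were closest to the 6-week sample of their number. Samples of one number carried opposite dyes at these ages, so this check cannot decide whether numbers mark pairs. The labels do not say that they do. Centring on the control probes raised each difference, since the means of the Gapdh and beta-actin probes differed by -0.69 and -0.23. Why these means differed was not tested. With 1 sample left out, Spot14b ranged from 0.81 to 1.38 and AMPKg2 from -0.86 to -0.63. Without samples 3 to 6 of 6 weeks they were 1.16 and -0.74. Over all other alternatives Spot14b ranged from -0.21 to 1.63 (0.18 without background subtraction, 1.59 in the series table), AMPKg2 from -1.77 (series table) to 0.63, Pyr-kin from -0.86 to -0.10, H-FABP from -0.70 to 0.0018, LPL from -1.11 to 0.34 and Apo-B from -0.18 to 0.81. The adjusted p of Spot14b and of AMPKg2 ranged from 0.0362 to 0.997 and from 0.0986 to 0.982.

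Signs turned in 10 values of the 6 genes with full statistics, and the cause was not tested. In the authors' log2 values as deposited, Spot14b was -0.21, AMPKg2 0.63, H-FABP 0.0018, LPL 0.34 and Apo-B -0.0022. In the same values centred, AMPKg2 was 0.38 and Apo-B -0.010. LPL was 0.031 with control centring, and Apo-B was -0.0063 without background subtraction and -0.18 with slide as a fixed block. The missing code takes out values near background there: 0 of 140 coded values were above it, against 130 of 340 others. Of the other 14 genes, 56 of 287 values under these alternatives and 44 of 336 with a sample left out had the opposite sign, and 0 passed the threshold.

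The counts for the difference between dyes, detection, control probes, spread and the unlabelled channel stayed at 0 in each alternative run, and genes above background per sample differed by -0.37 to -1.75. Sample number and weak signal limit all results: 350 of 480 values were not above background.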
